A study of Mus musculus with 18 samples.

Results

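The genes described here code for the kinases that set how far glucose is broken down and where its carbon goes. They are the 4 members of the PFKFB family (*Pfkfb1*, *Pfkfb2*, *Pfkfb3* and *Pfkfb4*) and the 4 pyruvate dehydrogenase kinases (*Pdk1*, *Pdk2*, *Pdk3* and *Pdk4*). They were chosen by name, with earlier results of these data known, and all 8 were found among the 78239 genes of the count tables. Their RNA was compared in mouse retina and in 661W cells, with and without a normoxia-stable form of HIF1A, the oxygen-regulated subunit of the transcription factor HIF1.

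This form, encoded by *nsHif1a*, is mouse HIF1A with a Myc-tag and amino acid exchanges that stop its hydroxylation, so that it is neither degraded nor silenced in normal oxygen. In the retina it was delivered by subretinal injection of an adeno-associated virus, AAV::*nsHif1a*, in which the mouse opsin promoter drives expression in rods. Control mice received AAV::eGFP with the same promoter and the coding sequence of enhanced green fluorescent protein. The mice carried no transgene named in the labels, were injected between postnatal days 29 and 32, and gave whole retinas 3 weeks later (5 AAV::*nsHif1a* and 5 AAV::eGFP libraries). The sample labels name the strain C57BL/6J, whereas the study's methods name another strain. The 661W line, a mouse line grown from a retinal tumour and used as photoreceptor-like cells, was transfected with plasmids in which the CMV promoter drives *nsHif1a* or eGFP, and RNA was taken after 20 hours (4 libraries each). The virus reached part of each retina and its promoter is active in rods, whereas the RNA came from all retinal cells, and in such bulk samples fewer cells of a type and less RNA per cell cannot be told apart. Nothing in the sources used here says that the cell libraries came from separate cultures, and their p-values measure only the spread between these libraries.

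PFKFB enzymes carry a kinase and a phosphatase in a single protein and so make and remove fructose 2,6-bisphosphate, the strongest activator of phosphofructokinase 1 (PFK-1), which controls the pace of glycolysis. PFKFB3 has a far more active kinase than phosphatase, and *Pfkfb3* and *Pfkfb4* are known targets of HIF1. PDK enzymes sit in mitochondria and phosphorylate the pyruvate dehydrogenase complex, which switches it off and leaves pyruvate to be turned into lactate, and *Pdk1* is a known HIF1 target too. Photoreceptors release much of their glucose as lactate even when oxygen is plentiful, which is why the choice among these isoforms has been of interest in this tissue.

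*Pfkfb3* lies on the minus strand of chromosome 2 (chr2:11476244-11558888, GRCm39) and *Pdk1* on the plus strand of the same chromosome (chr2:71703488-71734202). These were the members that rose in both experiments, and their promoters are shown with that of *Pdk3*, the retinal member with a smaller difference, and of *Pdk2*, which did not pass the test in either experiment. Each sequence runs 5′ to 3′ along the gene from 250 bases before to 50 bases after a RefSeq start site. The sequences come from RefSeq (table of GRCm38.p6) and each was found exactly once in GRCm39, whose coordinates are given. Capitals mark ACGTG and GCGTG on either strand, the core of the hypoxia response element that HIF binds (on the other strand they read CACGT and CACGC).
*Pfkfb3*, chr2:11506852-11507151, minus strand: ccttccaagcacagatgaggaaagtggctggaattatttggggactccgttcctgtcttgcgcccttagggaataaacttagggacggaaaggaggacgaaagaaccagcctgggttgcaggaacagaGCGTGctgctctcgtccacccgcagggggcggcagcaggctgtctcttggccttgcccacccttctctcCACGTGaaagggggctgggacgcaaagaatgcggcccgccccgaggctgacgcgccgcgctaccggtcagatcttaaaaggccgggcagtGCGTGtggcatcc
*Pdk1*, chr2:71703318-71703617, plus strand: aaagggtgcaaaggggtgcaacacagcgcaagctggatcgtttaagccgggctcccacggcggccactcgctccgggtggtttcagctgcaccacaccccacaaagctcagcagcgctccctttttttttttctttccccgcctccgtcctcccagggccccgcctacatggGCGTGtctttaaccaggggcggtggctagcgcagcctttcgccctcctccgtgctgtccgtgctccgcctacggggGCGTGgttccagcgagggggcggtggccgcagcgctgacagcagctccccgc
*Pdk3*, chrX:92875707-92876006, minus strand: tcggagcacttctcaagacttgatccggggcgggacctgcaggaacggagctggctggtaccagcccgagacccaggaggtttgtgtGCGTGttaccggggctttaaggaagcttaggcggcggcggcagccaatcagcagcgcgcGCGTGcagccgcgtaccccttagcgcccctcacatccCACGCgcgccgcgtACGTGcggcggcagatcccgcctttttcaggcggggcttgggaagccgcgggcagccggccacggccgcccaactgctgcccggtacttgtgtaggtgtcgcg
*Pdk2*, chr11:94932148-94932447, minus strand: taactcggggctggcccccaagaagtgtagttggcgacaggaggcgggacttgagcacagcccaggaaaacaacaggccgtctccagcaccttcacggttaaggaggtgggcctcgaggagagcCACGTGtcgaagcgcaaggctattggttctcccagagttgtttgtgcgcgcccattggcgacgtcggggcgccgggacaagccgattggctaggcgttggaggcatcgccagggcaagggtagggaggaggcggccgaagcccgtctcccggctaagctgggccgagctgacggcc

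In the *Pfkfb3* window GCGTG lay 122 bases before the start and again 38 bases after it, and CACGTG, which reads ACGTG on both strands and is counted on each, lay 53 bases before it. The *Pdk1* window held GCGTG at 78 and at 2 bases before the start, and the *Pdk3* window held 4 matches, the nearest 53 bases before the start. The *Pdk2* window held CACGTG, again counted on both strands, 126 bases before the start. Such matches are common. Of the 32851 mouse promoters of this length in the table, 43.8% held at least 1 match and 20.6% held 2 or more, and 46.7% of the 27025 genes had a match in at least 1 of their promoters. The table held 16 promoters of the members, of which 11 had a match, and every member had at least 1 promoter with a match, also those whose RNA did not pass the test. A promoter of *Pfkfb2*, which was not called in either experiment, held 4 matches, the nearest a CACGTG 22 bases before its start. A match in these letters is a description of the window and not a binding site. The *Pfkfb3* start used here lies 516 bases from the start of its canonical gencode transcript. *Pfkfb3* and *Pdk1* each had a further RefSeq promoter, with 1 match and with 0 matches.

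The 18 libraries held between 12898220 and 17809585 counts in genes. *Hif1a*, whose counts can include reads of the transgene, rose in the cells from 157 ± 6.79 to 1561 ± 384 CPM (counts scaled to library size, SD, n = 4 each). Its log2FC there was 3.26 (adjusted *p* = 1.2e-05 from limma). In whole retina it was 668 ± 26.1 CPM with AAV::eGFP and 687 ± 31.6 CPM with AAV::*nsHif1a* (SD, n = 5 each). These groups overlapped, so *Hif1a* RNA did not tell them apart, and retinal groups are named by their labels. By Western blot, the study reports a marked increase of HIF1A protein in retinas given AAV::*nsHif1a*. It also reports higher RNA of HIF1 target genes in such retinas by real-time PCR. *Pfkfb3*, a member described here, is among the genes it reports as significantly raised by that PCR. *Xist*, the transcript of the inactive X chromosome, had 19492 to 28595 counts in all 5 AAV::*nsHif1a* retinas and in AAV::eGFP replicates 1 and 2, and 1 to 3 counts in the other 3 AAV::eGFP retinas, which carried counts of Y-linked genes. Genes of the lens γ-crystallins took from 0.0634% to 0.280% of a control library and from 0.0956% to 1.82% of an AAV::*nsHif1a* library. The 6 rod markers summed to between 41557 and 45760 CPM in AAV::eGFP retinas and between 32109 and 43160 CPM in AAV::*nsHif1a* retinas, with a median log2FC of -0.23 and 0 of 6 past both thresholds. All 4 microglia markers (median log2FC 0.61) and all 6 lens markers (2.43) had positive fitted values, again with 0 called. All 4 endothelial markers were positive too (median log2FC 0.28, 0 called). The 4 pigment epithelium markers varied widely within both groups. They summed to between 10.4 and 419 CPM with AAV::eGFP and between 15.2 and 400 CPM with AAV::*nsHif1a*, and 0 of the 3 tested were positive (median log2FC -0.26). The part of the microglia, endothelial and pigment epithelium markers in the retinal results was not tested, and a fit with the lens level stands with those results. In the 661W libraries the 6 rod markers summed to 1.43 to 3.76 CPM and 5 cone markers to 0.901 to 1.82 CPM, so the defining photoreceptor genes were close to absent from these cells. Cell replicates 1 and 2 stood apart from replicates 3 and 4 in both groups, and values within these sets are given where they differ.

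The isoforms that led each family in the retina were not those that led in the cells. Levels of different genes are compared here as CPM per kilobase of exon, scaled over all 18 libraries, and the share of a member is its percent of the sum over its 4-member family. In AAV::eGFP retinas *Pfkfb2*, the isoform known best from heart, made up 58.0% ± 1.75 of the PFKFB family (SD, n = 5), *Pfkfb3* 25.2% ± 1.31, *Pfkfb4*, the testis isoform that is also induced by hypoxia, 14.9% ± 2.62, and *Pfkfb1*, the liver and muscle isoform, 1.85% ± 0.465. The levels behind these shares were 16.1 ± 1.26, 6.996 ± 0.716, 4.11 ± 0.517 and 0.510 ± 0.122 CPM per kb, and the ranges of the libraries did not overlap between any neighbours in this order. In 661W cells with eGFP the order was another: *Pfkfb4* held 37.1% ± 3.60, *Pfkfb1* 27.97% ± 4.11, *Pfkfb3* 25.4% ± 2.84 and *Pfkfb2* 9.52% ± 1.94 (SD, n = 4). The ranges of *Pfkfb1* (24.4% to 32.6%) and *Pfkfb3* (22.8% to 28.98%) overlapped, so that these neighbours did not differ beyond their spread. The range of *Pfkfb1* also overlapped that of *Pfkfb4* (32.2% to 40.2%). In eGFP replicate 1 *Pfkfb1* was the leading member, with 32.6% against 32.2% for *Pfkfb4*, and the lead of *Pfkfb4* is one of means. The summed PFKFB level was 27.7 ± 1.47 CPM per kb in the retina and 7.05 ± 0.616 in the cells.

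**Figure D1:**
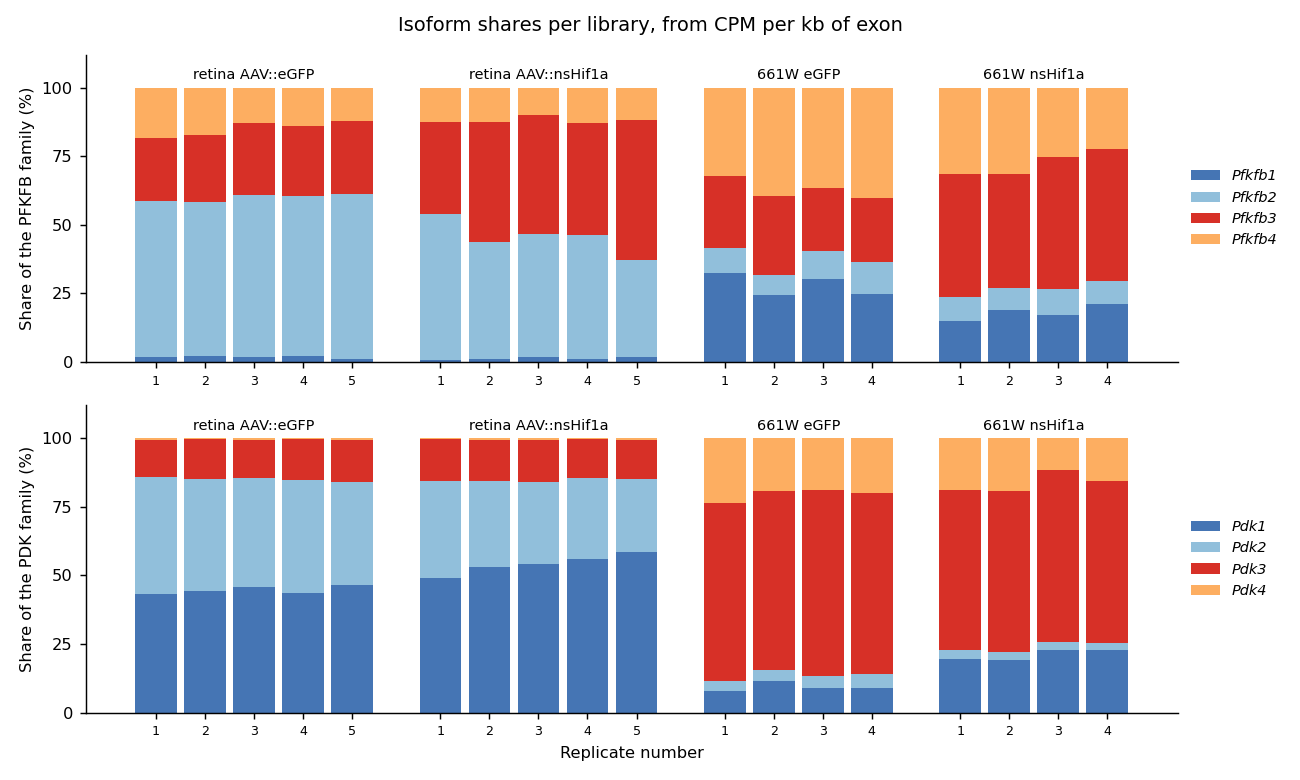
Share of each member in its family (percent, from CPM per kb of exon) in every library, with the PFKFB family above and the PDK family below and replicate numbers on the x axis. *Pfkfb2* fills 56.0% to 60.2% of the AAV::eGFP bars and 35.3% to 53.3% of the AAV::*nsHif1a* bars, *Pdk3* fills 58.3% to 68.0% of every cell bar, and the *Pfkfb3* and *Pdk1* segments are taller with *nsHif1a* in both experiments.

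The PDK family was split in another way. In AAV::eGFP retinas *Pdk1* held 44.7% ± 1.38 of the family and *Pdk2*, the most widely expressed isoform, 40.3% ± 1.84, with *Pdk3* at 14.5% ± 0.673 and *Pdk4*, the isoform of fasting and fatty acid use, at 0.476% ± 0.160 (SD, n = 5). *Pdk1* was above *Pdk2* in all 5 of these libraries, but this order depended on gene length: with the longest transcript in place of the union of exons *Pdk2* led with 50.5% against 36.7%, and with no length correction with 45.5% against 40.9%. In 661W cells with eGFP *Pdk3*, an isoform on the X chromosome with high activity, held 65.9% ± 1.44, *Pdk4* 20.4% ± 2.12, *Pdk1* 9.29% ± 1.503 and *Pdk2* 4.37% ± 0.515 (SD, n = 4), and no ranges overlapped. *Pdk3* led in the cells under each choice of length. The lead of *Pfkfb4* in the mean of control cells was lost without length correction, where *Pfkfb3* held 35.0% and *Pfkfb4* 31.2%, whereas *Pfkfb2* led in control retinas under each choice. In eGFP replicate 1 of the cells *Pfkfb1* was above *Pfkfb4* with the longest transcript too (31.9% against 28.8%). Exon length matters most for *Pfkfb2* and *Pdk2*, whose union of exons (9364 and 7581 bases) is much longer than their longest transcript (5109 and 4353 bases).

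The difference between control retina and control cells was tested gene by gene over all libraries, and all 8 members passed both thresholds (adjusted *p* under 0.05 and a log2FC beyond 0.5 in either direction, limma). This says little about the members, because 81.3% of the 20999 genes tested did so, 46.1% upward and 35.1% downward, 91.8% passed the adjusted *p* alone, 86.3% had groups that did not overlap, and the median log2FC of all genes was 0.30. That median moved to 0.38 with another scaling (RLE size factors), and levels compared between retina and cells rest on the shared scaling. Tissue and experiment cannot be told apart in this contrast. Higher in the retina were *Pfkfb2* (log2FC 4.62, SE 0.16, adjusted *p* = 9.0e-16), *Pdk2* (3.81, SE 0.086, adjusted *p* = 2.7e-18), *Pdk1* (2.88, SE 0.13, adjusted *p* = 5.4e-14), *Pfkfb3* (1.96, SE 0.14, adjusted *p* = 7.4e-11) and *Pfkfb4* (0.63, SE 0.11, adjusted *p* = 1.6e-05). Lower in the retina were *Pdk3* (log2FC -1.58, SE 0.066, adjusted *p* = 1.7e-14), *Pfkfb1* (-2.004, SE 0.24, adjusted *p* = 1.5e-07) and *Pdk4* (-4.72, SE 0.39, adjusted *p* = 9.0e-10). *Pdk4* had 4 to 9 counts per library in control retina and 167 to 277 in control cells, and *Pfkfb1* 9 to 21 and 49 to 97. Per kb of exon *Pdk4* and *Pfkfb1* were the weakest members of their families in control retina, and *Pdk2* and *Pfkfb2* in control cells, where without length correction *Pfkfb1* was below *Pfkfb2* (13.8% against 20.02% of the family).

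With AAV::*nsHif1a* in the retina, *Pfkfb3* and *Pdk1* rose and no other member passed both thresholds. *Pdk3* passed the adjusted *p* but not the fold threshold. Of the 18859 genes tested, 1.08% rose and 0.912% fell at both thresholds (1.99% in either direction), and 2 of the 7 members tested rose and 0 fell. *Pdk4*, with 2 to 11 counts in the 10 retinal libraries, was removed by the filter on low counts and was not tested.

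*Pfkfb3* had 34.9, 39.6, 44.7, 43.5 and 44.7 CPM in AAV::eGFP replicates 1 to 5 and 64.7, 86.7, 83.6, 76.5 and 101 CPM in AAV::*nsHif1a* replicates 1 to 5. Every AAV::*nsHif1a* retina was above every AAV::eGFP retina, and replicate 1 was the lowest and replicate 5 the highest of the AAV::*nsHif1a* group. The log2FC was 0.98 (SE 0.10, 95% confidence interval 0.76 to 1.2, adjusted *p* = 2.7e-04 from limma). *Pdk1* had 65.0, 64.7, 70.1, 65.5 and 73.3 CPM with AAV::eGFP and 79.0, 103.1, 101.5, 102 and 124 CPM with AAV::*nsHif1a*, again with no overlap and with replicates 1 and 5 at the ends. Its log2FC was 0.57 (SE 0.084, 95% confidence interval 0.38 to 0.75, adjusted *p* = 0.0026 from limma), a 1.48-fold higher level. *Pdk3* had 20.9, 21.4, 21.3, 22.5 and 24.5 CPM with AAV::eGFP and 24.9, 29.9, 29.4, 26.8 and 30.9 CPM with AAV::*nsHif1a*, groups that did not overlap but lay close together, at 24.5 CPM at most and 24.9 at least. The log2FC was 0.36 (SE 0.070, 95% confidence interval 0.21 to 0.51, adjusted *p* = 0.011 from limma). Over all genes tested, 5.94% had groups that did not overlap and 5.79% passed the adjusted *p* alone.

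The other retinal members showed no difference that passed the test. *Pfkfb2* had 130, 138.9, 154, 151 and 156.5 CPM with AAV::eGFP and 158, 128, 131.5, 128.4 and 107 CPM with AAV::*nsHif1a* (log2FC -0.17, SE 0.079, 95% confidence interval -0.34 to -0.00088, adjusted *p* = 0.23 from limma). The AAV::*nsHif1a* replicate with the least *Pfkfb3*, replicate 1, had the most *Pfkfb2*, and replicate 5 had the most *Pfkfb3* and the least *Pfkfb2*. The AAV::eGFP group differed, as its replicate 1 had the least of both genes. Pearson's *r* between them over the 18 libraries was 0.194 (log2 CPM after subtraction of each experiment's mean). Whether they vary against each other was not tested. *Pdk2* lay between 73.3 and 78.6 CPM with AAV::eGFP and between 66.5 and 74.4 CPM with AAV::*nsHif1a* (log2FC -0.094, SE 0.042, adjusted *p* = 0.21). *Pfkfb4* lay between 12.8 and 17.1 and between 11.6 and 14.99 CPM (log2FC -0.072, SE 0.10, adjusted *p* = 0.73), and *Pfkfb1*, with 7 to 21 counts per library, had a log2FC of -0.12 (SE 0.28, adjusted *p* = 0.84). For *Pfkfb4* the 95% confidence interval of the log2FC ran from -0.30 to 0.15, and for *Pfkfb1* from -0.73 to 0.48.

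Because the AAV::eGFP group mixed libraries with and without *Xist* and the AAV::*nsHif1a* group did not, the retinal contrast was fitted again on the 7 libraries with *Xist* counts (5 against 2). The *Pfkfb3* log2FC was then 1.14 (SE 0.13, adjusted *p* = 0.013 from limma) and that of *Pdk1* 0.64 (SE 0.11, adjusted *p* = 0.042). The X-linked *Pdk3* had 0.44 (SE 0.089, adjusted *p* = 0.055) and so no longer passed the adjusted *p*, whereas with the *Xist* class as a covariate in all 10 libraries it did (0.44, SE 0.089, adjusted *p* = 0.026). Members that were not called moved as well in the 7 libraries, without passing the test. The log2FC went to -0.045 for *Pfkfb2* (adjusted *p* = 0.86), to -0.28 for *Pfkfb4* (adjusted *p* = 0.26) and to -0.37 for *Pfkfb1* (adjusted *p* = 0.63). *Pfkfb1* is X-linked too. The AAV::eGFP libraries with *Xist* had 130 and 138.9 CPM of *Pfkfb2* and those without it 151 to 156.5. In AAV::*nsHif1a* replicates 2 and 5 γ-crystallin genes took 0.130% and 0.0956% of counts, the least of their group, and *Pfkfb3* had 86.7 and 101 CPM. With the mean γ-crystallin level as a covariate the log2FC was 1.13 for *Pfkfb3* and 0.69 for *Pdk1* (adjusted *p* = 3.3e-04 and 0.0027).

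**Figure D2:**
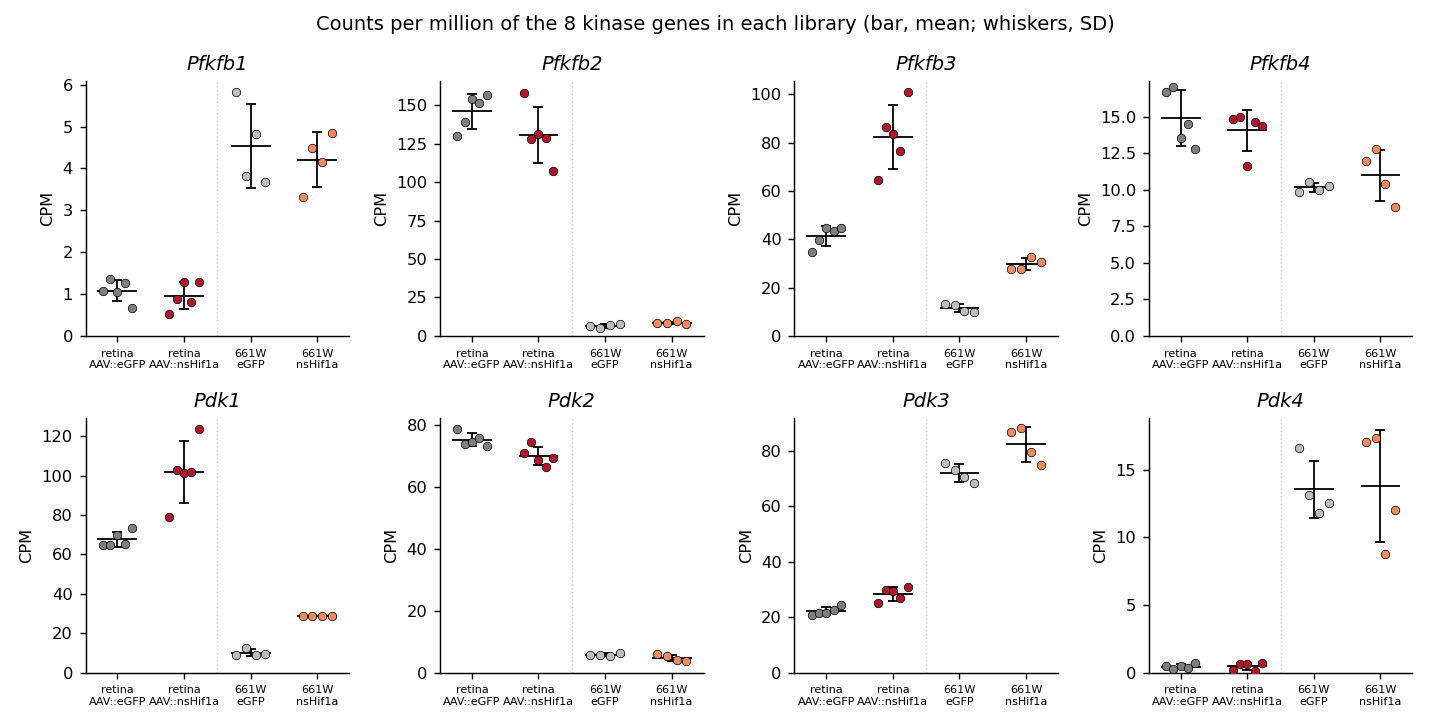
Level of each member in every library (CPM scaled within each experiment by TMM factors; linear y axes from 0, with a different range for each gene), with points for libraries in the order of their replicate numbers, a bar for the mean and whiskers for the SD. *Pfkfb3* and *Pdk1* with *nsHif1a* lie above all control libraries of the same experiment, and *Pdk4* is near 0 in the retina but between 8.77 and 17.4 CPM in the cells.

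In 661W cells *Pfkfb3* and *Pdk1* rose as well, by more than 2-fold each, and no other member passed the test. Both thresholds were passed upward by 1.21% of the 15962 genes tested and downward by 0.0626%, and by 2 and 0 of the 8 members. The adjusted *p* alone was passed by 2.49% of genes and by the same 2 members. Blocking on the replicate number left these 2 members called, while the share of all genes called in either direction went from 1.27% to 0.670%.

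*Pfkfb3* had 13.2, 12.7, 10.2 and 9.83 CPM with eGFP and 27.6, 27.8, 32.6 and 30.7 CPM with *nsHif1a* in replicates 1 to 4, with no overlap. The log2FC was 1.37 (SE 0.11, 95% confidence interval 1.12 to 1.61, adjusted *p* = 4.1e-04 from limma). *Pdk1* had 9.01, 12.6, 9.17 and 9.31 CPM with eGFP and 28.7, 28.7, 28.6 and 28.6 CPM with *nsHif1a*, so that replicate 2 of the control group stood above its others and the *nsHif1a* libraries were nearly equal. Its log2FC was 1.53 (SE 0.10, 95% confidence interval 1.30 to 1.76, adjusted *p* = 1.3e-04 from limma), a 2.89-fold higher level. On the log2 CPM scale *Pfkfb3* was higher with *nsHif1a* by 1.09 in replicates 1 and 2 and by 1.65 in replicates 3 and 4, and *Pdk1* by 1.42 and 1.62. When each set was summed into 1 library per group and compared as 2 against 2, the log2FC was 1.37 for *Pfkfb3* and 1.52 for *Pdk1* but neither passed the test (adjusted *p* = 0.30 and 0.14 from limma), nor did any of the 18117 genes tested in that fit, of which 920 had an unadjusted *p* under 0.05.

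*Pfkfb2* had 6.73, 4.86, 7.06 and 7.51 CPM with eGFP and 8.44, 8.08, 9.65 and 7.999 CPM with *nsHif1a* (log2FC 0.39, SE 0.15, adjusted *p* = 0.18). Its groups did not overlap, which held for 13.6% of all genes tested in the cells. *Pdk3*, the main PDK of these cells, had 75.7, 72.9, 70.4 and 68.3 CPM with eGFP and 86.6, 88.0, 79.4 and 74.8 CPM with *nsHif1a* (log2FC 0.20, SE 0.061, adjusted *p* = 0.12), with overlap only between *nsHif1a* replicate 4 and eGFP replicate 1. At each of the 4 replicate numbers *Pdk3* was higher with *nsHif1a*, although the numbers are not shown to pair the libraries. Its adjusted *p* from limma was 0.086 with the replicate block, 0.017 with the replicate set as a covariate (log2FC 0.19) and 0.89 with the sets summed. *Pdk4* had 16.6, 13.2, 11.8 and 12.5 CPM with eGFP and 17.1, 17.4, 8.77 and 12.03 CPM with *nsHif1a*. The *nsHif1a* libraries of *Pdk4* thus split by replicate set, with a log2 difference from eGFP of 0.22 in replicates 1 and 2 and of -0.24 in replicates 3 and 4, and the fitted log2FC was 0.0092 (SE 0.20, 95% confidence interval -0.44 to 0.46, adjusted *p* = 0.99). *Pfkfb4* went the same way, 0.28 and -0.080, with a fitted log2FC of 0.10 (SE 0.11, adjusted *p* = 0.64). *Pdk2* differed by -0.018 and -0.55 in these sets (log2FC -0.27, SE 0.15, adjusted *p* = 0.34), and *Pfkfb1* by -0.28 and 0.090 (log2FC -0.12, SE 0.20, adjusted *p* = 0.77).

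**Figure D3:**
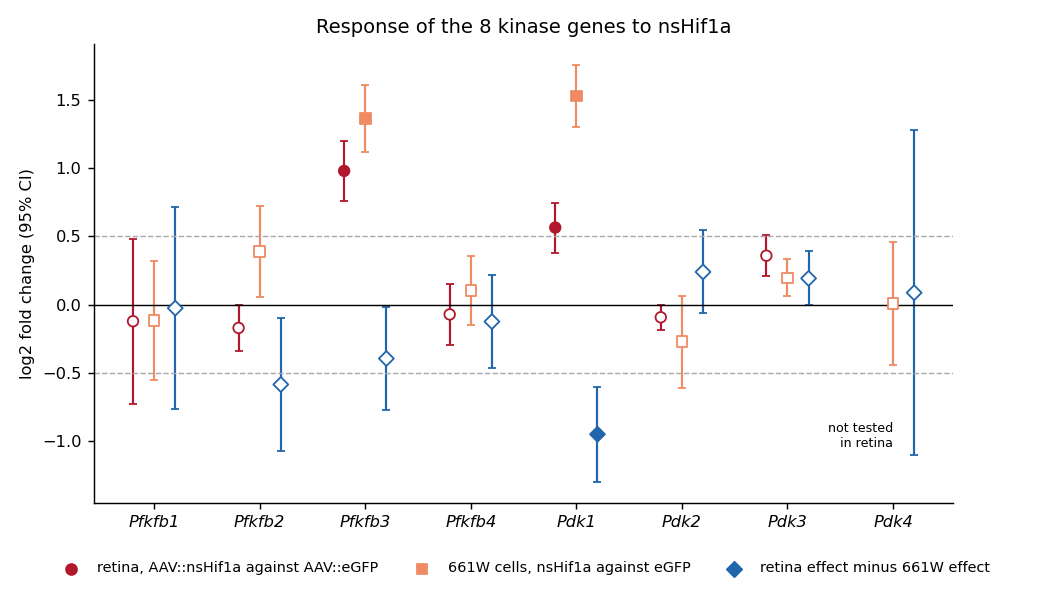
Fitted log2FC of each member with its 95% confidence interval in the retina, in 661W cells, and for the retinal effect minus the cell effect (limma; dashed lines at 0.5 and -0.5). Filled symbols passed the thresholds, which held for *Pfkfb3* and *Pdk1* in both experiments and, for the difference, for *Pdk1* (-0.95).

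Whether the response differed between retina and cells was tested as a difference of effects over all 18 libraries. The rise of *Pdk1* was the smaller one in the retina (log2 difference -0.95, SE 0.17, 95% confidence interval -1.30 to -0.60, adjusted *p* = 0.0075 from limma), and *Pdk1* was the only member past the adjusted *p* of 0.05, which 2.33% of the 20999 genes tested passed (1.25% in this direction). The virus reached part of the retina, and the cells were read 20 hours after transfection with another promoter, so that tissue, dose and time cannot be told apart. For *Pfkfb3* the difference was -0.40 (SE 0.18, 95% confidence interval -0.78 to -0.015, adjusted *p* = 0.28), which does not show that it responded alike in the retina and the cells. *Pfkfb2* differed by -0.59 (SE 0.23, adjusted *p* = 0.20), and the DESeq2 test called this difference (-0.55, SE 0.17, adjusted *p* = 0.030). The remaining differences lay between -0.13 (*Pfkfb4*) and 0.24 (*Pdk2*) with adjusted *p* from 0.32 to 0.99.

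The make-up of both families is described next, without a test. In the retina the *Pfkfb3* share went from 23.3% to 26.3% over the AAV::eGFP libraries to 33.4%, 44.0%, 43.5%, 41.0% and 51.0% in AAV::*nsHif1a* replicates 1 to 5, and the *Pfkfb2* share from 56.0% to 60.2% down to 53.3%, 42.4%, 44.7%, 45.0% and 35.3%. *Pfkfb3* therefore exceeded *Pfkfb2* per kb in replicates 2 and 5 and remained below it in the other 3, and the mean shares of 42.6% ± 6.32 and 44.2% ± 6.43 (SD, n = 5) did not differ beyond their spread. With the longest transcript as length, *Pfkfb2* stayed ahead with 57.3% against 33.0%. In the cells the *Pfkfb3* share went from 25.4% ± 2.84 to 45.6% ± 3.10 (SD, n = 4), which made it the leading member in all 4 *nsHif1a* libraries, and *Pfkfb4* went to 27.7% ± 4.53 of the family while its own level did not pass the test. The *Pdk1* share went from 44.7% ± 1.38 to 54.1% ± 3.53 in the retina and from 9.29% ± 1.503 to 21.1% ± 1.98 in the cells, where *Pdk3* still led with 59.7% ± 2.15. *Pdk2* went from 40.3% ± 1.84 to 30.5% ± 3.30 in the retina. With AAV::*nsHif1a* the mean share of *Pdk1* was above that of *Pdk2* under each choice of gene length (46.5% against 39.8% with the longest transcript, 50.5% against 35.1% with none), but in replicate 1 the order still turned with the longest transcript (41.0% for *Pdk1* and 45.4% for *Pdk2*). Shares sum to 100% within a family, and a lower share is not by itself a lower level.

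The summed level of each family was higher with *nsHif1a* in both experiments, as a description without a test. The PFKFB sum was 25.4 to 28.8 CPM per kb in AAV::eGFP and 31.6 to 33.4 in AAV::*nsHif1a* retinas, and 6.42 to 7.89 and 9.76 to 10.6 in the cells. The PDK sum was 24.5 to 26.6 CPM per kb in control retinas against 27.4 to 35.5, and for the cells 15.7 to 18.2 against 19.6 to 23.1. Ranges did not overlap in any of these 4 pairs. Of single genes tested, 5.94% in the retina and 13.6% in the cells had groups without overlap. Each sum includes a member called above, *Pfkfb3* or *Pdk1*. In the retina mean *Pfkfb3* went from 6.996 to 13.97 CPM per kb and mean *Pdk1* from 11.4 to 17.2. There the means of *Pfkfb1*, *Pfkfb2*, *Pfkfb4* and *Pdk2* were lower, without passing the test, and those of *Pdk3* and *Pdk4* higher. The sums therefore do not show a rise of every member. PDK kinases are opposed by the pyruvate dehydrogenase phosphatases *Pdp1* and *Pdp2*, which reactivate the complex. Neither passed the test: *Pdp1* had a log2FC of 0.097 (SE 0.054, adjusted *p* = 0.32) in the retina and 0.14 (SE 0.13, adjusted *p* = 0.58) in the cells, and *Pdp2* of -0.24 (SE 0.066, adjusted *p* = 0.055) and 0.14 (SE 0.16, adjusted *p* = 0.67). The ratio of summed PDK to summed PDP level per kb was 1.86 to 2.07 in AAV::eGFP and 2.182 to 2.87 in AAV::*nsHif1a* retinas, without overlap, and 2.83 to 2.93 and 2.87 to 3.78 in the cells, where the ranges overlapped.

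Other enzymes of the pathways that these kinases control were described with gene lists. Of the list of PFK-1 subunits and fructose bisphosphatases, 4 of 6 genes were tested. In the cells *Pfkl*, the liver-type PFK-1 subunit, rose from 73.9 ± 9.88 to 134.5 ± 16.3 CPM (SD, n = 4; log2FC 0.88, SE 0.11, adjusted *p* = 0.0061 from limma), the only gene of the list past both thresholds there, and in the retina it went from 408.5 ± 20.4 to 565 ± 53.9 CPM (SD, n = 5; log2FC 0.46, SE 0.057, adjusted *p* = 9.6e-04), below the fold threshold. *Pfkp*, the platelet-type subunit, passed the adjusted *p* alone in both experiments (log2FC 0.28 and 0.48). *Tigar*, a phosphatase that removes the product of the PFKFB kinases, had a log2FC of -0.16 (SE 0.050, adjusted *p* = 0.080) in the retina and -0.034 (SE 0.089, adjusted *p* = 0.86) in the cells. The median log2FC of the list was 0.14 in the retina and 0.23 in the cells, beside -0.0021 and -0.0013 over all genes tested.

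The pyruvate dehydrogenase complex itself, the substrate of the PDK family, had no gene past both thresholds. Of 12 listed genes (complex subunits, phosphatases with their regulator, pyruvate carriers and the related kinase *Bckdk*), 11 were tested and 0 passed both thresholds in either experiment. At the adjusted *p* alone 1 gene was lower in the retina and 0 differed in the cells, and the median log2FC was -0.0091 and 0.00036. Of 18 other genes of glycolysis, 16 were tested in the retina. *Ldha*, which makes lactate from the pyruvate that the complex does not take, was the only one of these 16 to rise (709 ± 26.7 to 993 ± 43.8 CPM; log2FC 0.501, SE 0.041, adjusted *p* = 1.5e-04), just past the fold threshold. At the adjusted *p* alone 11 of 16 were higher and 0 lower, beside 625 higher and 466 lower of all 18859 genes tested, with a median log2FC of 0.28. In the cells 13 of the list were tested and *Eno2*, the neuronal enolase, was the only one to rise (17.2 ± 0.677 to 29.3 ± 1.05 CPM; log2FC 0.76, SE 0.059, adjusted *p* = 3.4e-04), with 2 of 13 higher at the adjusted *p* alone, beside 329 of all 15962 genes, and a median of 0.12. The lists were chosen with earlier results of these data known, and their counts are descriptions.

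**Figure D4:**
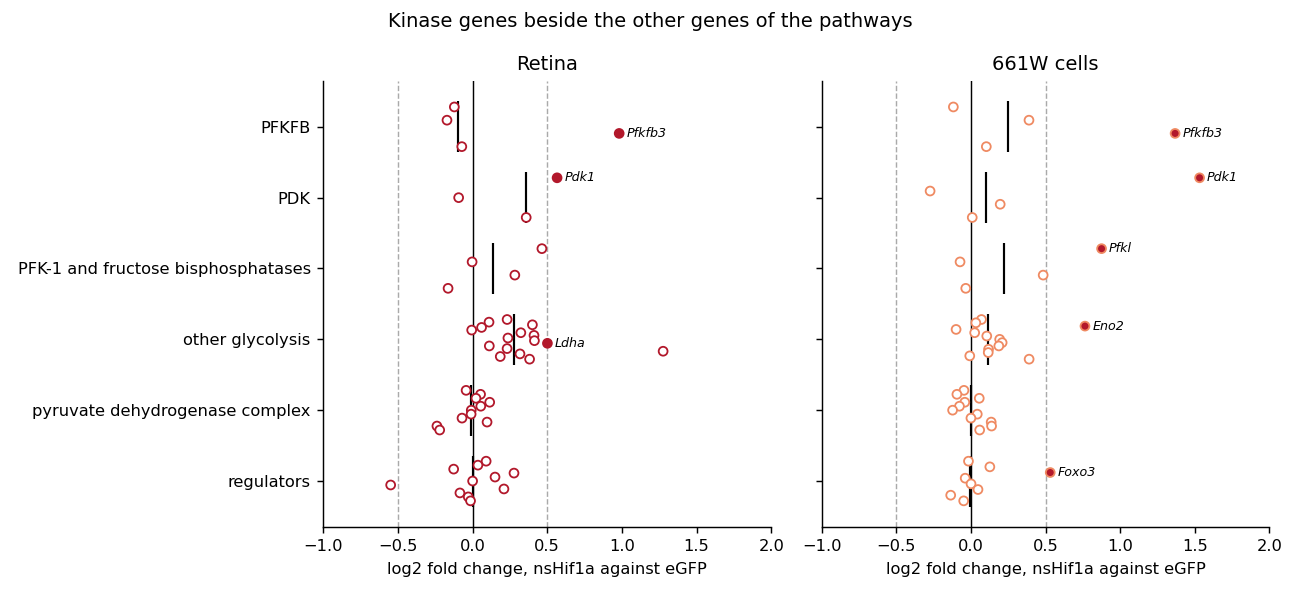
Fitted log2FC of every tested gene of the 2 kinase families and of 4 other lists in the retina (left) and in 661W cells (right), with a black bar for the median of each list, filled points for genes past both thresholds and dashed lines at 0.5 and -0.5. Genes of the pyruvate dehydrogenase complex lie close to 0 in both panels, and the other glycolysis genes lie mostly above 0 in the retina.

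Of 12 regulators known to act on these kinases, among them the PPAR receptors and FOXO factors that drive *Pdk4* and the AMP-activated kinase that acts on PFKFB proteins, 11 were tested in the retina and 0 passed both thresholds, and 8 were tested in the cells and 1 did. This was *Foxo3*, a FOXO transcription factor, with 34.9 ± 1.01 CPM with eGFP and 50.5 ± 7.003 with *nsHif1a* (SD, n = 4; log2FC 0.53, SE 0.086, adjusted *p* = 0.017 from limma) and a log2FC of 0.28 (SE 0.071, adjusted *p* = 0.040) in the retina. *Pdk4*, a known target of these factors, had the values given above in the cells. Of the HIF subunits other than *Hif1a*, none passed the thresholds in either experiment.

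Within each experiment some genes followed a member closely over the 18 libraries (Pearson's *r* of log2 CPM after subtraction of each experiment's mean, among 14122 genes tested in both). The points share their libraries and the contrast of *nsHif1a* with eGFP, and *r* is given as a description. For *Pfkfb3* the closest genes were *Slc16a3*, the lactate exporter MCT4 (*r* = 0.980), *Smtnl2* (*r* = 0.973) and *Bnip3*, a mitophagy receptor and known HIF1 target (*r* = 0.969). *Bnip3* was also among the closest for *Pdk1* (*r* = 0.964), after *Gm6532*, annotated as an unprocessed pseudogene (*r* = 0.970), and *Ak4*, a mitochondrial adenylate kinase (*r* = 0.965). *Pfkfb3* and *Pdk1* had *r* = 0.943 with each other and 0.824 and 0.693 with *Pdk3*, whose own closest genes were *Triobp* (0.948), *Kdm2a* (0.936) and *Lsm14a* (0.925). *Pdk2* had negative values with both, *r* = -0.645 with *Pfkfb3* and -0.601 with *Pdk1*, and was most like *Skida1* (0.832), *Ajm1* (0.807) and *Adam11* (0.793). For members that did not pass the test the closest genes were *Spring1* (0.860), *Utrn* (0.841) and *Birc6* (0.825) for *Pfkfb2*, *Cbx7* (0.878), *Bbs2* (0.848) and *Ptx3* (0.838) for *Pfkfb4*, and the processed pseudogene *Gm20760* (0.774), *Pld1* (0.762) and *Msh3* (0.737) for *Pfkfb1*, whose counts were low in the retina. The difference between *nsHif1a* and eGFP stays in all these values. Higher *r* for called members and negative *r* between members thus follow in part from the fitted differences and are not separate results.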

How the data were processed

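Retinal and 661W RNA was sequenced by the authors with a stranded mRNA kit. Per the labels, the deposited files hold raw counts per gene (featureCounts, GRCm39), and the study's methods name alignment with Rsubread, counting on the antisense strand and the gencode M36 basic annotation. No columns were left unassigned. Genes were named by stable identifier from gencode M39. Each experiment was filtered with filterByExpr (minimum count 10), scaled by TMM (edgeR 4.0.16) and fitted with voomWithQualityWeights and limma 3.58.1 in R 4.3.3. The study's methods describe the same steps, with other software versions and a minimum count taken from the library size. Benjamini-Hochberg adjustment was over all genes tested. A call needed an adjusted p-value under 0.05 with an absolute log2FC above 0.5, and differences of effects at the adjusted p-value alone. The retina-cell contrasts were fitted on all 18 libraries. edgeR's quasi-likelihood test, DESeq2 1.42.0, other scalings and filters, and left-out libraries were tried as alternatives, and the fits were tested on simulated data.

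Members and lists were chosen with earlier results of these data known. Named genes were the 8 members, *Hif1a*, genes of the lists past both thresholds (at most 6 of the other glycolysis list), *Tigar*, *Pdp1*, *Pdp2*, and the 3 genes closest to each member. From the other glycolysis list 1 gene was left out and is not reported here. Beyond this rule, *Pfkp* and *Bckdk* were named after their values were seen. Same-numbered cell libraries deviated together (*r* 0.227 to 0.269 over 4 pairs), but so did libraries of the same set (1 and 2, or 3 and 4, 0.227 to 0.287). The replicate numbers are therefore not shown to be pairs. The reported fits of the cells were unpaired, with the replicate block as an alternative. Of the 50-base words in *Pfkfb2* transcripts, 9.25% also occur in transcripts of other genes, at most 1.28% for the other members, and the effect on *Pfkfb2* counts was not tested.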

Additional observations from a re-analysis of the deposited data

Results flagged for a closer look

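The rise of *Pdk1* with *nsHif1a* differed between the retina and the cells by a test of the difference itself (log2 difference -0.95, adjusted *p* = 0.0075 from limma, over alternatives from -1.07 to -0.87). None of these alternatives summed the cell replicate sets. With the sets summed, the rise of *Pdk1* in the cells alone did not pass the test (adjusted *p* = 0.14 from limma). In 661W cells with eGFP, replicate 2 stood above the other 3 libraries for *Pdk1* (12.6 CPM against 9.01 to 9.31). In AAV::*nsHif1a* retinas, replicate 3 stood below the other 4 for *Pfkfb4* (11.6 CPM against 14.4 to 14.99). The check for a library apart was run on 32 combinations of member and group, and chance flags about 1 in 20.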

How the results depend on the processing

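*Pfkfb3* and *Pdk1* were called in the retina under all 21 alternative fits (log2FC 0.91 to 1.14 and 0.52 to 0.69), including the replicate block (0.98 and 0.58), although retinal numbers did not pair the libraries (*r* -0.148 to 0.138). In the cells they were called under 17 of 18. Counts of members called moved in few settings: 0 in the retina at a log2FC beyond 1, 0 in the cells with replicates added (1.37 for *Pfkfb3*, 1.52 for *Pdk1*), and, for the difference of effects, 2 with DESeq2 and 0 beyond 1. The replicate block changed no member's call (the cells' log2FC was 1.40 for *Pfkfb3* and 1.53 for *Pdk1*). Counts over all genes ranged from 140 to 528 in the retina (375 as reported), 0 to 1878 in the cells (203) and 214 to 3113 for the difference (489). Single libraries decided much of these counts: without cell *nsHif1a* replicate 3 or 4 there were 1878 or 1876 calls in the cells and 3097 or 3113 for the difference, without cell eGFP replicate 1 or 2 there were 84 or 89 and 316 or 317, and without AAV::eGFP replicate 4 or 5 there were 219 or 243 in the retina and 248 or 296 for the difference, which was 300 without AAV::*nsHif1a* replicate 3. All 8 members were called between control groups in each of 27 alternative fits. With the longest transcript, and with no length correction, the shares were 70.5% and 71.7% (*Pfkfb2*) and 36.7% and 40.9% (*Pdk1*) in AAV::eGFP retinas, 57.3% and 57.1%, and 46.5% and 50.5%, in AAV::*nsHif1a* retinas, and 33.1% and 31.2% for *Pfkfb4* in control cells. Without length correction *Pdk3* held 71.0% and 63.5% in cells with eGFP and *nsHif1a*, and *Pfkfb3* 55.5% with *nsHif1a*. Members that were not called changed sign in some fits. With 1 library left out, the retinal log2FC ran from -0.33 to 0.027 for *Pfkfb1* and from -0.16 to 0.013 for *Pfkfb4*, and in the cells from -0.21 to 0.0060 for *Pfkfb1*, from -0.085 to 0.27 for *Pfkfb4* and from -0.33 to 0.32 for *Pdk4*. The difference of effects ran from -0.22 to 0.14 for *Pfkfb1*, from -0.32 to 0.0052 for *Pfkfb4*, from -0.020 to 0.41 for *Pdk2* and from -0.30 to 0.34 for *Pdk4*. *Pdk4* in the cells was -0.029 without quality weights, -0.015 without a filter and -0.026 with replicates added, and its difference of effects was -0.035 without weights and -0.014 with the block. The cause of these changes was not tested. Without cell *nsHif1a* replicate 4 the limma adjusted *p* was 0.036 for *Pfkfb4*, and without replicate 3 or 4 it was 0.0038 or 0.0024 for *Pdk3* (log2FC 0.27 each, below the fold threshold). Low counts limited *Pfkfb1* and *Pdk4* in the retina.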
